A study of Mus musculus with 12 samples.

Results

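The 10 genes described here belong to the transforming growth factor beta (TGF-beta) pathway: the ligand genes Tgfb1, Tgfb2 and Tgfb3, the latent TGF-beta binding protein genes Ltbp1 and Ltbp2, the receptor genes Tgfbr1 and Tgfbr2, the signal transducer Smad3, the inhibitor Smad7 and the target gene Tgfbi. They were chosen by symbol, as 10 of the 18194 genes that had a probe set of their own on the array, and each was read from its probe set with the highest mean over all arrays. The study hybridized mouse pancreas RNA to 12 Affymetrix arrays, in 4 groups of 3. The groups were C57BL6/NHsd mice after cerulein, C57BL6/NHsd mice after saline, C57BL6/J mice after cerulein, and C57BL6/J mice after saline. The labels call the NHsd mice Harlan and the J mice Jackson, give an age of 8 weeks throughout, and number the arrays as biological replicates. Each array is taken here as a separate mouse, which the array titles do not state. Cerulein is an analogue of the hormone cholecystokinin that overstimulates acinar cells, and the labels state that it was used to induce chronic pancreatitis. The dosing schedule is not given in the sources used here, and the labels name the control mice as female while giving no sex for the treated ones.

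TGF-beta is secreted in a latent form that binding proteins tether to the extracellular matrix, and it acts once it is released. The active ligand binds the type II receptor, which phosphorylates the type I receptor. The type I receptor in turn phosphorylates the receptor-regulated SMAD proteins, and these enter the nucleus with a common partner to change transcription. In the pancreas the pathway is known for driving stellate cells to deposit matrix during fibrosis.

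After cerulein, both receptor genes, the ligand gene Tgfb3 and the target gene Tgfbi were higher in each substrain. On the deposited scale Tgfbr2 was 5.35-fold, Tgfbr1 4.89-fold and Tgfbi 4.17-fold higher as the mean of both substrains. With every array set to the same median, the log2 differences of Tgfbr2, Tgfbr1 and Tgfbi were smaller, at 1.84, 1.71 and 1.48. Tgfb1, Ltbp1 and Ltbp2 had no level above the filter on any array. Smad3 was called higher on the deposited scale only, Smad7 was called lower only after the arrays were rescaled, and Tgfb2 was not called. No difference between the substrains was called for any of the 7 genes that could be tested.

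Values are log2 signals on the deposited GCRMA scale, an array normalization that subtracts a background estimated from probe sequence. Genes whose probe set passed log2 4 on 3 or more of the 12 arrays were tested, 8505 in all and 7 of the 10 among them. Differences were tested with limma, the p-values were adjusted by the Benjamini-Hochberg method over the 8505 genes, and a difference was called when the adjusted p was below 0.05. Every adjusted p below is of that kind unless another test is named. Beside a fold given as "at least" a value, it tests all readings, also those under log2 4, and not that bound. Replicate arrays are biological replicates per the labels and are taken as separate mice, and 3 arrays a group limit the precision. A difference in a bulk sample of pancreas can come from more or fewer cells of a type or from more or less RNA per cell, and these cannot be told apart here.

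The whole profile moved with treatment. In the mean of both substrains, 59.4% of the tested genes were called higher and 10.1% lower after cerulein, and the median gene was 0.49 higher on the log2 scale. The array's hybridization controls, which are added in fixed amounts, averaged 7.51 ± 0.14 on the 6 cerulein arrays and 9.33 ± 0.42 on the 6 saline arrays (mean ± SD). A two-sided exact permutation test over 924 assignments gave p = 0.00216, the smallest it allows, or 0.00325 adjusted over 3 control measures. The poly-A controls, added before labelling, averaged 7.49 ± 0.58 on the cerulein arrays and 10.17 ± 0.42 on the saline arrays, with the same exact p. The Gapdh 3′ minus 5′ signal, a sign of RNA quality, was 0.83 ± 0.13 on the cerulein arrays and 1.22 ± 0.20 on the saline arrays (exact permutation p = 0.00649). Each member was also tested with every array set to the same median, where 26.6% of genes were called higher and 36.1% lower. The median gene then stood at −0.10. Such rescaling answers the shift of the median gene and not that of the controls. It lowers the cerulein arrays against the saline arrays, and the controls already read lower on the cerulein arrays. The part of these control values in the differences below was not tested.

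Macrophage markers stood at a mean of 7.76 to 8.56 over the list's 15 genes on cerulein arrays, against 4.67 to 5.23 on saline arrays, and all 15 were called higher, where 59.4% of all genes were; Adgre1, Cd68, Fcgr1, Cd14 and Aif1 passed the filter only through cerulein arrays and so had to differ. Fibroblast and stellate cell markers stood at 6.58 to 7.72 over 12 genes after cerulein and 4.76 to 5.18 after saline, and all 11 tested were called higher, of which Thy1 and Postn passed only through cerulein arrays. Acinar markers stood at 12.4 to 13.0 over 13 genes after cerulein and 13.1 to 13.3 after saline, with 9 called lower and 2 higher, against 11 lower and 0 higher with equal medians. Of the markers of platelets, which store TGF-beta1, 4 of 5 (Ppbp, Itga2b, Gp9 and Treml1) were under log2 4 on all arrays, and Pf4, platelet factor 4, was called higher as deposited (1.44, SE 0.18, adjusted p = 2e-05) and with equal medians (0.86). The list averaged 3.16 to 3.52 after cerulein and 2.97 to 3.09 after saline, mostly readings under the filter. Of T and NK cell markers, 8 of 9 were under log2 4 on all arrays, and Zap70, a T cell receptor kinase, passed only through saline arrays and was called lower. That list averaged 2.66 to 2.80 after cerulein and 2.88 to 3.10 after saline. The part of these cell types in the results below was not tested.

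**Figure D1:**
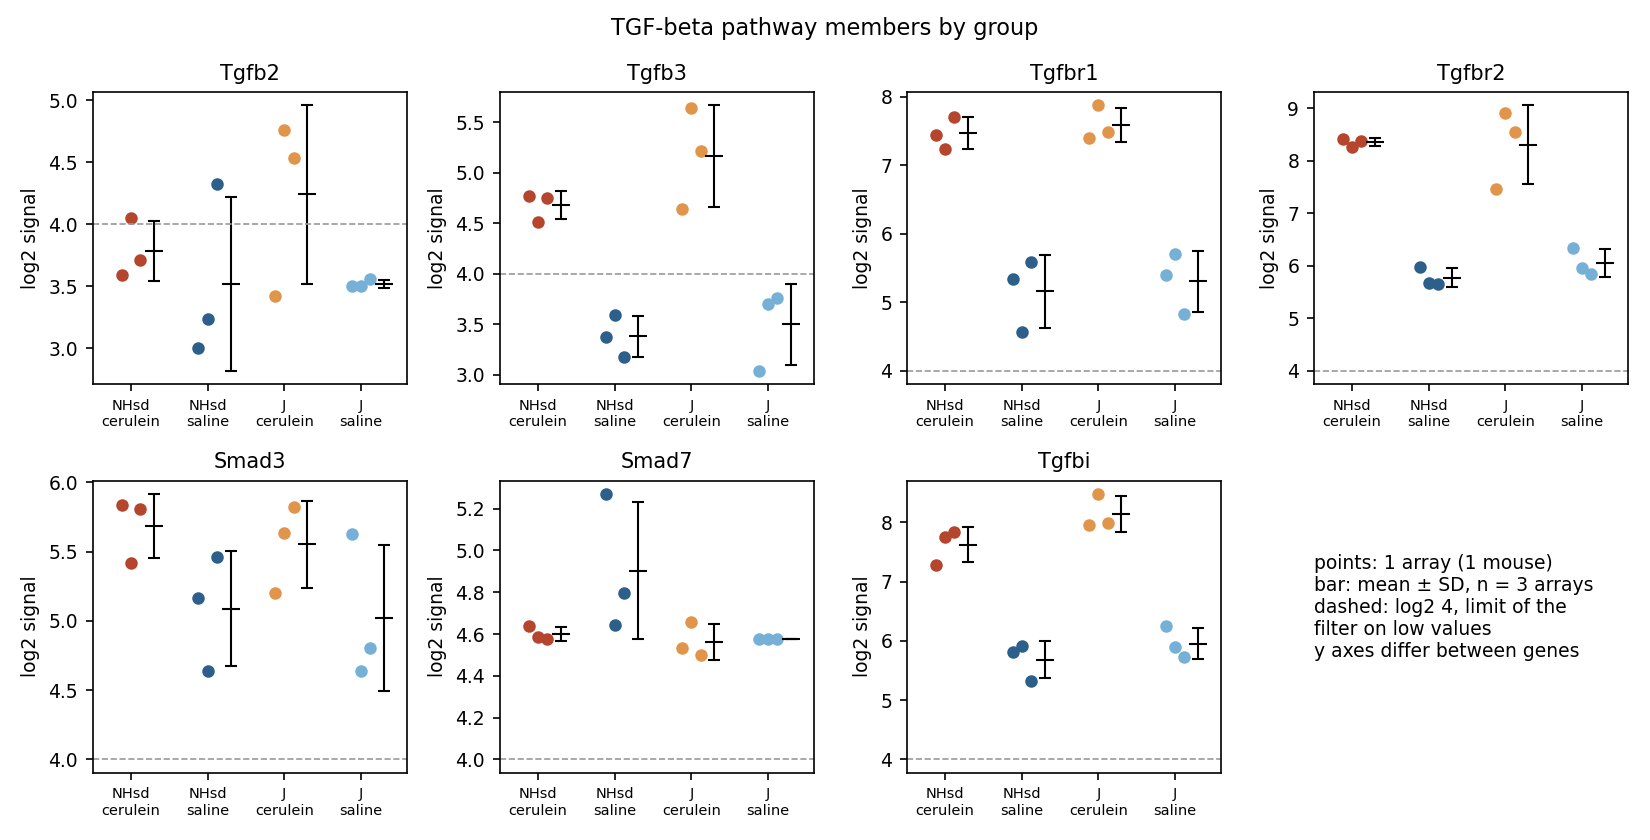
The log2 signal of each of the 7 tested genes is plotted for every array (points) with the group mean ± SD (bars, n = 3), cerulein left of saline in each substrain, a dashed line at log2 4 and a separate y axis for each gene. Tgfbr1, Tgfbr2, Tgfb3 and Tgfbi have all 6 cerulein arrays above all 6 saline arrays, while the points of Tgfb2 and Smad3 overlap.

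Tgfb1, the most widely expressed of the 3 ligand genes, read 2.39, 2.39 and 2.39 in NHsd mice after cerulein and 2.39, 2.39 and 2.39 in NHsd mice after saline. It read 2.40, 2.39 and 2.40 in J mice after cerulein and 2.44, 2.39 and 2.39 in J mice after saline. Of the 12 arrays, 11 lay within 0.01 of each other, and the gene's other probe set read 2.39 on all 12. The lowest value in the whole table is also 2.39, so Tgfb1 had no measured level in any group and no difference was tested. The endothelial markers Pecam1 and Cdh5 were likewise under log2 4 on all arrays of this vascular organ, so a low reading here does not show that a transcript was missing.

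Tgfb2, a ligand that needs the co-receptor betaglycan for strong receptor binding, lay near the filter. It read 3.59, 4.05 and 3.71 in NHsd mice after cerulein, against 3.00, 3.24 and 4.32 in NHsd mice after saline. In the J mice, readings were 3.42, 4.76 and 4.54 after cerulein, against 3.50, 3.50 and 3.56 after saline. The arrays exceeded log2 4 in 4 cases, and the groups overlapped in both substrains. The mean difference of 0.49 (SE 0.26) equalled that of the median gene and missed the threshold (adjusted p = 0.103). Leaving out either of 2 arrays brought a call, at 0.70 without J cerulein replicate 1 (adjusted p = 0.0122) and 0.69 without NHsd saline replicate 3 (adjusted p = 0.0158). In J mice alone Tgfb2 was 0.72 higher (SE 0.36, adjusted p = 0.107), and 1.13 higher and called without J cerulein replicate 1 (adjusted p = 0.0108).

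Tgfb3, the third ligand, passed the filter only through its cerulein arrays. In NHsd mice it read 4.77, 4.52 and 4.75 after cerulein, against 3.38, 3.59 and 3.18 after saline. The readings in J mice were 4.64, 5.64 and 5.22 after cerulein, against 3.04, 3.70 and 3.76 after saline. All 6 cerulein arrays stood above all 6 saline arrays, and every saline array was under log2 4. Group means were 4.68 ± 0.14 and 3.38 ± 0.20 in NHsd mice after cerulein and saline, and 5.17 ± 0.50 and 3.50 ± 0.40 in J mice after cerulein and saline (SD, n = 3 each). Against log2 4 as the lowest value counted as measured, Tgfb3 was at least 1.60-fold higher after cerulein in NHsd mice (adjusted p = 0.00111) and at least 2.25-fold higher in J mice (adjusted p = 0.000196). Both calls, made on all readings, also those under log2 4, and not on these bounds, held with every array set to the same median.

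The latent TGF-beta binding proteins tie the pathway to the matrix. Ltbp1, which binds the latent ligand covalently, read 3.30, 3.29 and 3.29 in NHsd mice after cerulein and 3.17, 3.28 and 2.95 in NHsd mice after saline. The readings in J mice were 3.28, 3.78 and 3.63 after cerulein and 3.35, 3.28 and 3.28 after saline. On 6 of the 12 arrays, drawn from all 4 groups, the values lay within 0.01 of one another, and no array reached log2 4. Ltbp2, a family member found on elastic microfibrils, read 2.39 on all 12 arrays. Neither gene was tested, and no level of either was measured in any group.

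Tgfbr1 encodes the type I receptor, the kinase that phosphorylates SMAD2 and SMAD3. It read 7.45, 7.24 and 7.71 in NHsd mice after cerulein, against 5.34, 4.56 and 5.58 in NHsd mice after saline. In J mice the readings were 7.40, 7.87 and 7.49 after cerulein, against 5.41, 5.70 and 4.83 after saline. The lowest cerulein array stood above the highest saline array by more than the spread within any group. Group means were 7.47 ± 0.23 after cerulein and 5.16 ± 0.53 after saline in NHsd mice, and 7.59 ± 0.25 after cerulein and 5.31 ± 0.44 after saline in J mice (SD, n = 3 each). The difference was 2.30 (SE 0.28, adjusted p = 3.6e-05) in NHsd mice and 2.28 (SE 0.28, adjusted p = 3.51e-05) in J mice. With equal medians the mean of both substrains was 1.71 (adjusted p = 2.75e-06), against 2.29 as deposited (SE 0.20, adjusted p = 8.06e-07).

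Tgfbr2 encodes the type II receptor, which binds the ligand first. It read 8.42, 8.27 and 8.38 in NHsd mice after cerulein, against 5.98, 5.68 and 5.66 in NHsd mice after saline. In J mice it read 7.46, 8.91 and 8.54 after cerulein, against 6.34, 5.97 and 5.84 after saline. J cerulein replicate 1 stood low among the cerulein arrays and still above every saline array. Group means were 8.36 ± 0.08 after cerulein and 5.77 ± 0.18 after saline in NHsd mice, and 8.30 ± 0.75 after cerulein and 6.05 ± 0.26 after saline in J mice (SD, n = 3 each). Tgfbr2 was 2.58 higher (SE 0.29, adjusted p = 2.28e-05) in NHsd mice and 2.25 higher (SE 0.29, adjusted p = 5.46e-05) in J mice. Its mean difference of 2.42 (SE 0.21, adjusted p = 7.59e-07) was close to the 2.29 of Tgfbr1. With equal medians the Tgfbr2 mean difference was 1.84 (adjusted p = 2.51e-06).

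Smad3 encodes the receptor-regulated transducer that carries the TGF-beta signal to the nucleus. In NHsd mice it read 5.83, 5.42 and 5.81 after cerulein, against 5.17, 4.64 and 5.46 after saline. In J mice it read 5.21, 5.64 and 5.82 after cerulein, against 5.63, 4.64 and 4.80 after saline. The groups overlapped in both substrains. The lowest reading, 4.64, was the same on NHsd saline replicate 2 and J saline replicate 2, with no array below it. The mean of both substrains was 0.56 higher (SE 0.20, adjusted p = 0.0226), close to the 0.49 of the median gene. That difference rests in part on this repeated lowest reading. It was −0.017 with equal medians (adjusted p = 0.942). Neither substrain alone was called, although both were without J saline replicate 1, at 0.60 in NHsd mice (adjusted p = 0.0476) and 0.83 in J mice (adjusted p = 0.0202). The call was lost without NHsd cerulein replicate 1, J cerulein replicate 3, NHsd saline replicate 2, J saline replicate 2 or J saline replicate 3, with an adjusted p of 0.0528 to 0.0606.

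As deposited, a second Smad3 probe set, 1450472_s_at, ran the other way. It read 3.58, 3.56 and 3.25 in NHsd mice after cerulein, against 4.25, 4.44 and 4.54 after saline. J mice gave 3.56, 3.18 and 3.56 after cerulein, against 3.59, 3.99 and 4.60 after saline. All cerulein arrays stood below all saline arrays, the closest pair by less than 0.01, and every cerulein array was under log2 4. This probe set thus passed the filter only through saline arrays and had to differ in this direction. Against log2 4 it was at least 1.33-fold lower after cerulein in NHsd mice (adjusted p = 0.00482) and at least 1.04-fold lower in J mice (adjusted p = 0.0389), with p-values adjusted over 12780 probe sets. The third probe set read 2.39 on all arrays. The direction read for Smad3 depended on the scaling and on the probe set, and the downward one was fixed by the filter.

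Smad7 encodes the inhibitory SMAD, which is induced by TGF-beta and blocks the type I receptor. It read 4.64, 4.59 and 4.58 in NHsd mice after cerulein, against 5.27, 4.64 and 4.80 in NHsd mice after saline. The J readings were 4.53, 4.66 and 4.50 after cerulein, against 4.58, 4.58 and 4.58 after saline. The value 4.58 stood, within 0.01, on all 3 J saline arrays and on 1 NHsd cerulein array, with 2 arrays below and 6 above it. The difference of −0.16 (SE 0.11, adjusted p = 0.234) was not called as deposited, with −0.30 (SE 0.16) in NHsd mice and −0.01 (SE 0.16) in J mice. With equal medians it was −0.74 (adjusted p = 6.81e-05) and with quantile normalization −0.71 (adjusted p = 0.000103), called lower under both. In J mice, whose saline arrays all stood at the repeated value, Smad7 was −0.59 with equal medians, while the median gene there moved from 0.47 to −0.11. The rescaled calls thus rest in part on readings that barely varied before rescaling. Its other probe set stayed under log2 4 on all arrays.

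Tgfbi encodes a secreted matrix protein that binds integrins and collagens and was first isolated as a gene induced by TGF-beta. It read 7.28, 7.75 and 7.84 in NHsd mice after cerulein, against 5.81, 5.91 and 5.33 in NHsd mice after saline. In J mice it read 7.95, 8.48 and 7.98 after cerulein, against 6.24, 5.89 and 5.73 after saline. Every cerulein array stood above every saline array. Group means were 7.62 ± 0.30 after cerulein and 5.68 ± 0.31 after saline in NHsd mice, and 8.14 ± 0.30 after cerulein and 5.95 ± 0.26 after saline in J mice (SD, n = 3 each). The difference was 1.94 (SE 0.22, adjusted p = 2.52e-05) in NHsd mice and 2.18 (SE 0.22, adjusted p = 8.66e-06) in J mice. With equal medians the mean of both substrains was 1.48 (adjusted p = 1.97e-06), against 2.06 as deposited.

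Tgfbi was the member read by the most probe sets that passed the filter. Probe set 1448123_s_at was 1.97 higher after cerulein (SE 0.14, adjusted p = 1.89e-07 over 12780 probe sets) and 1456250_x_at 2.36 higher (SE 0.22, adjusted p = 1.95e-06). The remaining one, 1415871_at, was under log2 4 on every saline array and at least 2.27-fold higher after cerulein in NHsd mice and at least 2.42-fold higher in J mice. On all 4 probe sets every cerulein array stood above every saline array, as for 40.0% of all tested genes. Of the 4, 1415871_at passed the filter only through cerulein arrays and so had to differ. The 10 genes had 26 probe sets in all, of which 11 passed the filter. The other probe sets of Tgfbr1 and Tgfbr2 did not exceed log2 4 on any array, so each receptor rests on 1 probe set.

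**Figure D2:**
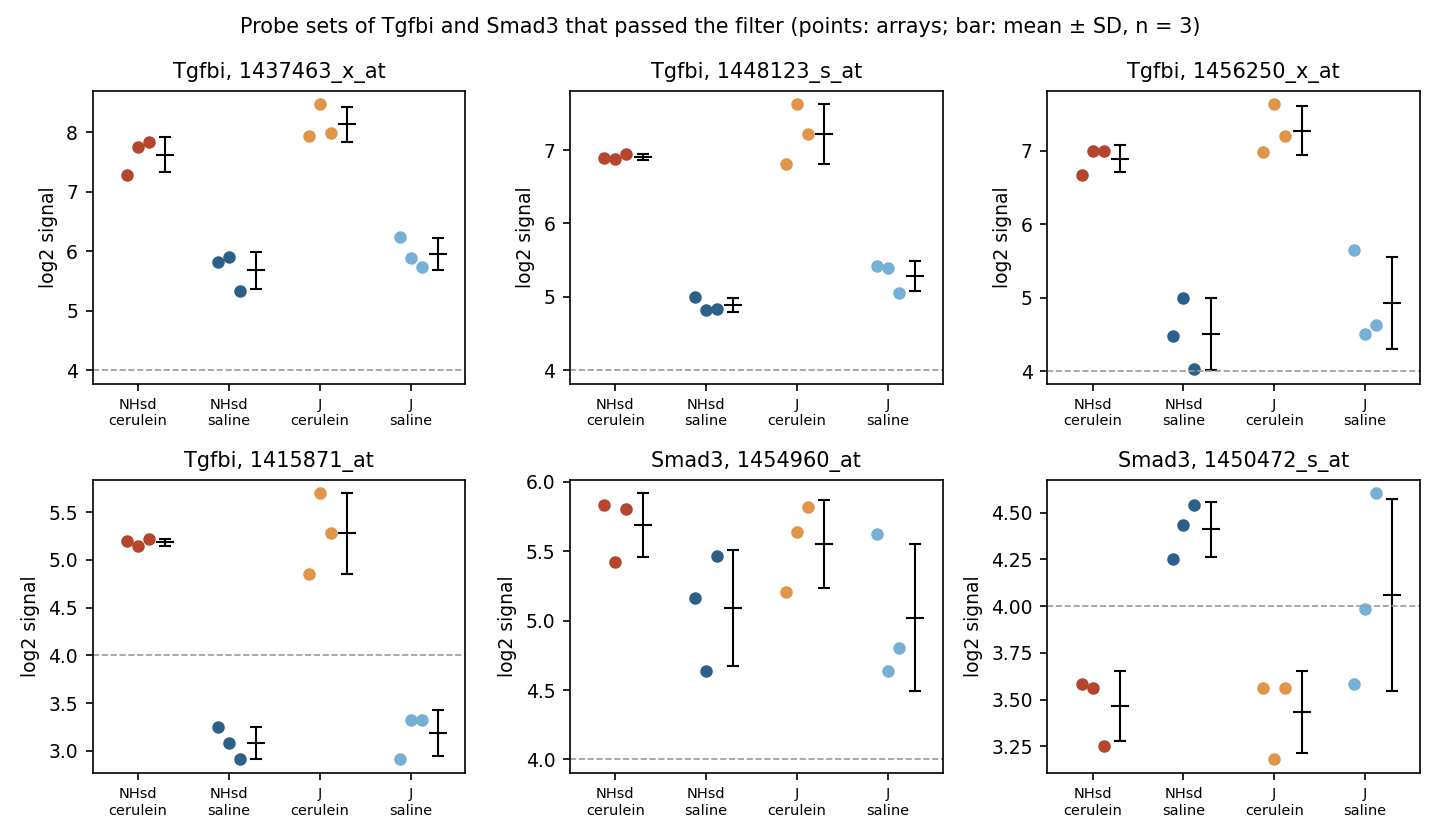
The log2 signal of the 4 Tgfbi and 2 Smad3 probe sets that passed the filter is plotted for every array (points) with the group mean ± SD (bars, n = 3), cerulein left of saline and a dashed line at log2 4. The 4 Tgfbi probe sets have every cerulein array above every saline array, and the 2 Smad3 probe sets move in opposite directions on this deposited scale. Tgfbi 1415871_at passed the filter only through cerulein arrays and Smad3 1450472_s_at only through saline arrays, so both had to differ.

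Of the 7 tested genes, 5 were called higher and 0 lower in the mean of both substrains as deposited, where 59.4% of all tested genes were called higher. With equal medians 4 were called higher and 1, Smad7, lower, where the shares of all genes were 26.6% and 36.1%. In NHsd mice alone 4 were called higher and 0 lower, against 48.7% and 6.6% of all genes. In J mice alone 4 were called higher and 0 lower, against 47.8% and 7.61%. Tgfb3 had to differ to be tested, because it passed the filter only through its cerulein arrays. All 6 cerulein arrays stood above all 6 saline arrays for 4 of the 7, as for 40.0% of all tested genes, so these counts alone do not set the genes apart. By size of the difference, Tgfbr2 was exceeded by 2.16% of tested genes, Tgfbr1 by 2.77% and Tgfbi by 3.99%; Tgfb3 has only a lower bound and no such rank.

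**Figure D3:**
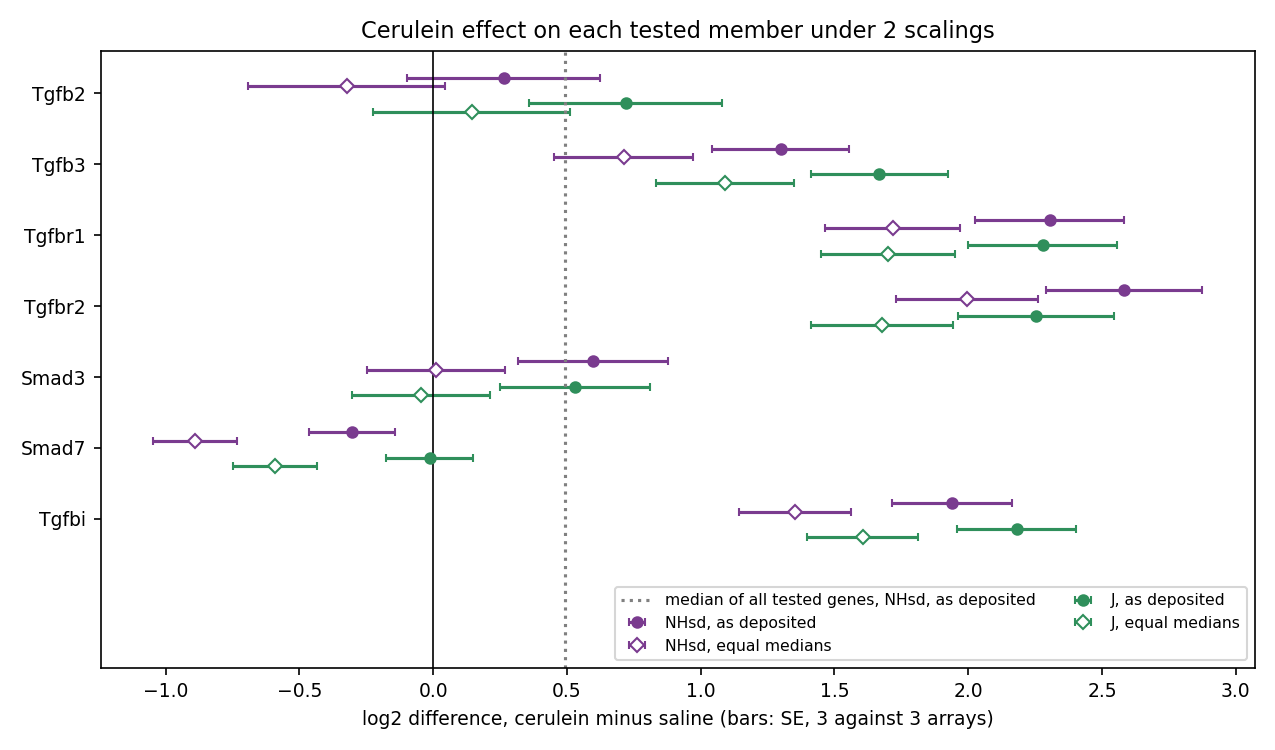
The log2 difference between cerulein and saline is plotted for the 7 tested genes in each substrain (bars are SE), as deposited in filled points and with equal array medians in open points, with a dotted line at 0.49, the median of all tested genes in NHsd mice. Tgfbr1, Tgfbr2, Tgfb3 and Tgfbi stay above 0 on both scales, Smad3 moves to about 0 and Smad7, below 0 as deposited in both substrains, moves further down; the Tgfb3 values include saline arrays under log2 4.

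The promoters of Tgfbr1, Tgfbr2 and Tgfbi are shown because these genes were called higher on every scale and RefSeq holds an entry for each. Each window runs from 250 bases before to 50 bases after the gene start on GRCm38.p6, 5′ to 3′ on the gene's strand, and 8 of the 10 genes had such an entry. Tgfbr1 had 2 entries, and the first is printed. Capitals mark the SMAD box CAGAC and the SP1 box GGGCGG on either strand. The Tgfbr1 window lies at chr4:47352972-47353271 on the plus strand, the Tgfbr2 window at chr9:116175314-116175613 on the minus strand, and the Tgfbi window at chr13:56609336-56609635 on the plus strand.
Tgfbr1: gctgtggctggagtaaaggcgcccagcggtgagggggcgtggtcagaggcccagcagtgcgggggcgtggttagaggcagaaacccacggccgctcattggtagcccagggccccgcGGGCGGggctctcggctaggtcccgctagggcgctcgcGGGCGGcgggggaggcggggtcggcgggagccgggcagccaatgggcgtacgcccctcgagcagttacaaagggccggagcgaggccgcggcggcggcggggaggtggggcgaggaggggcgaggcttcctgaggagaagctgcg
Tgfbr2: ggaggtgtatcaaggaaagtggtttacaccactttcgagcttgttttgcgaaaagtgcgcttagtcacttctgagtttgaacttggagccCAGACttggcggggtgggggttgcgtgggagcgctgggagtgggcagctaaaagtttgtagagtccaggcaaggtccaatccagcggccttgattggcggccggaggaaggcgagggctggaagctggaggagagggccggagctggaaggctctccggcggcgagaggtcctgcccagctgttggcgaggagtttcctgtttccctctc
Tgfbi: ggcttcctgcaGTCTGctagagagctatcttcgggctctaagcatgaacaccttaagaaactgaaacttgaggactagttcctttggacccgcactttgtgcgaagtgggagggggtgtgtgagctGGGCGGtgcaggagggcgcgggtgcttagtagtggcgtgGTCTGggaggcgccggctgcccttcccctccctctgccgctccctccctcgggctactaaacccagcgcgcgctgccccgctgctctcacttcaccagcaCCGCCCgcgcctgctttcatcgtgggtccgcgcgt

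The 3 windows differed in composition. The Tgfbr1 window was 74.7% G and C and held 0 SMAD boxes and 2 SP1 boxes. The second Tgfbr1 entry, at chr4:47385966-47386265 on the plus strand, was 52.0% G and C and held 1 SMAD box and 0 SP1 boxes. The Tgfbr2 window was 59.0% G and C and held 1 SMAD box and 0 SP1 boxes. The Tgfbi window was 63.3% G and C and held 2 SMAD boxes and 2 SP1 boxes. Over all 32851 promoters of the same length, 49.6% held a SMAD box and 35.7% an SP1 box, both strands searched. The GC-rich SMAD motif GGCGC, left in lower case, occurred 3 times in the Tgfbr1 window, 0 times in the Tgfbr2 window and 4 times in the Tgfbi window, and in 36.9% of all promoters. The AP-1 site TGANTCA was in none of the 3 windows and in 7.81% of all promoters. These matches describe the letters only.

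No difference between the substrains in the response to cerulein was called. By limma's test of the difference between the 2 effects, 0 of 7 were called and 0 had an unadjusted p below 0.05, where 0.0118% of all genes, 1 gene, was called. The effect in J mice minus that in NHsd mice was −0.03 (SE 0.39) for Tgfbr1, −0.33 (SE 0.41) for Tgfbr2 and 0.24 (SE 0.32) for Tgfbi. For Tgfb3 it was not detectable how the effects compare in size, because every saline array was under log2 4. The errors are wide against the differences, so substrain differences of this size could not be told from 0 with 3 arrays a group.

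After cerulein, Tgfbi was 8.14 ± 0.30 in J mice and 7.62 ± 0.30 in NHsd mice (SD, n = 3 each), a difference of 0.51 (SE 0.22) that was not called by limma (adjusted p = 0.488). It was the 1 member of 7 with an unadjusted p below 0.05 in that comparison, with 0 called, where 0.223% of all genes were called. The 3 J arrays stood above the 3 NHsd arrays on that probe set, as for 7.94% of all genes, while on the other 3 Tgfbi probe sets the arrays overlapped. In saline mice 0 of 7 were called and 0 had an unadjusted p below 0.05, where 0.0588% of all genes were called. Among the 7 the largest such difference was that of Smad7, −0.33 in J mice relative to NHsd mice (SE 0.16, adjusted p = 0.803). Of all listed genes, the islet marker Ppy, pancreatic polypeptide, was called between the substrains. After cerulein it was 6.22 ± 0.59 in J mice and 4.59 ± 0.46 in NHsd mice (SD, n = 3 each; difference 1.63, limma adjusted p = 0.0380). The call was lost when only the 6 cerulein arrays were fitted, where 0 of 8505 genes were called and 561 had an unadjusted p below 0.05.

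In order of level, Tgfbr1 and Tgfbi were highest in J mice after cerulein, then NHsd mice after cerulein, J mice after saline and NHsd mice after saline. For Tgfbr2 the first 2 places were exchanged. Tgfb3 was highest in J mice after cerulein, then NHsd mice after cerulein. Its saline arrays were all under log2 4, so its saline groups are not ranked. The step between the lower cerulein group and the higher saline group was free of overlap for all 4 genes. For Tgfb3 that step had to be there, because the gene passed the filter only through cerulein arrays. The neighbours within a treatment overlapped, apart from Tgfbi after cerulein. For Smad3 all neighbouring groups overlapped. Smad7 was highest in NHsd mice after saline, at 4.90 ± 0.33 (SD, n = 3), and the other groups, at means of 4.56 to 4.60, overlapped among themselves. Tgfb2 was highest in J mice after cerulein, at 4.24 ± 0.72, and its arrays there overlapped those of NHsd mice after cerulein.

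The genes whose 12 values, centred on their mean, lay closest to those of Tgfbr2 were Bicc1, Pcolce and Csf1r, with root mean square differences of 0.154, 0.165 and 0.175, where the median over all tested genes was 1.05. Bicc1 encodes an RNA-binding protein, Pcolce an enhancer of procollagen processing and Csf1r the macrophage colony-stimulating factor receptor. Closest to Tgfbi were Rin2, Rnf213 and Colec12, with differences of 0.109, 0.182 and 0.186 and a median over all tested genes of 0.878. Rin2 averaged 2.85 and Colec12 2.67 in NHsd mice after saline, and 3.22 and 2.86 in J mice after saline, all under log2 4, so their likeness to Tgfbi rests in part on readings below the filter. Rin2 encodes a RAB5 exchange factor, Rnf213 a ubiquitin ligase and Colec12 a scavenger receptor. The 12 arrays share the split between cerulein and saline, which gives many genes a like profile. The same could not be done for Tgfb1, which was not tested.

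Other genes of the pathway were read from lists, with the share of all tested genes called higher, 59.4%, and lower, 10.1%, as the measure for each. A list's counts leave out genes under the filter, and some of its genes passed only through cerulein arrays and so had to differ. Among 8 tested genes that act in latency and activation, 6 were called higher and 1 lower, with a median of 1.35 (6 higher, 2 lower and a median of 0.77 with equal medians), and 3 (Itgb8, Thbs1 and Emilin1) passed only through cerulein arrays. Plat, tissue plasminogen activator, was 2.36 higher (SE 0.28, adjusted p = 1.3e-05), and Itgav, the integrin alpha V chain that binds latent TGF-beta, was 1.52 higher (SE 0.09, adjusted p = 5.85e-08). Emilin1, a matrix protein that holds back TGF-beta processing, was at least 1.21-fold higher in NHsd mice (adjusted p = 0.000127) and at least 1.02-fold higher in J mice (adjusted p = 0.000227). Furin, a protease that cleaves the TGF-beta precursor, was lower, at −0.75 (SE 0.12, adjusted p = 0.000153).

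Among co-receptors and other type I receptors, 3 genes were tested. Tgfbr3, the co-receptor betaglycan, was 1.73 higher (SE 0.25, adjusted p = 5.34e-05), and Eng, the endothelial co-receptor endoglin, was lower, at −0.32 (SE 0.13, adjusted p = 0.0453). The list's median was 0.07 as deposited and −0.52 with equal medians, where 1 gene was called higher and 2 lower. Acvrl1, an endothelial type I receptor, was under log2 4 on all arrays.

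Of the SMADs and their partners, 7 of 8 tested were called higher and 0 lower as deposited, while 0 were called higher and 2 lower with equal medians. The list's median was 0.54 as deposited, close to that of all genes, and −0.04 with equal medians. The 3 with the largest differences were Trim33, a ubiquitin ligase that acts on SMAD4, at 0.88 (SE 0.16, adjusted p = 0.000295), Ep300, a transcriptional co-activator, at 0.76 (SE 0.16, adjusted p = 0.000998), and Smad5, a BMP-regulated SMAD, at 0.58 (SE 0.16, adjusted p = 0.00588). None of these 3 calls held with equal medians.

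Of 11 tested inhibitors and turnover genes, 8 were called higher and 1 lower, with a median of 0.57, and with equal medians 4 were higher and 3 lower, the median being −0.01. Tgif1 passed only through cerulein arrays. Pmepa1, a target gene whose product sequesters receptor-regulated SMADs, was at least 2.80-fold higher in NHsd mice, where all saline arrays were under log2 4, and 2.10 higher on the log2 scale in J mice (SE 0.20, adjusted p = 4.52e-06). Dcn, the proteoglycan decorin, which binds TGF-beta, was 1.64 higher (SE 0.19, adjusted p = 1.03e-05), and Skil, a SMAD co-repressor, was 1.17 higher (SE 0.14, adjusted p = 1.27e-05). Usp15, a deubiquitinase acting on the type I receptor, was lower, at −0.54 (SE 0.15, adjusted p = 0.00758).

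Of 20 tested TGF-beta target genes, 17 were called higher and 1 lower, with a median of 1.45, and with equal medians 13 were higher and 2 lower, the median being 0.87. Snai2, Zeb2, Timp1 and Lox passed only through cerulein arrays. Lox, the collagen cross-linking enzyme lysyl oxidase, was at least 3.02-fold higher after cerulein in NHsd mice (adjusted p = 4.24e-06) and at least 3.71-fold higher in J mice (adjusted p = 1.11e-06). Col3a1, a fibrillar collagen chain, was 3.14 higher (SE 0.24, adjusted p = 2.8e-07) and Col1a2, a chain of type I collagen, 3.07 higher (SE 0.34, adjusted p = 6.85e-06). Pdgfb, a growth factor for mesenchymal cells, was lower, at −0.47 (SE 0.17, adjusted p = 0.0217). The collagens are also fibroblast products, and the fibroblast markers moved with them, as given above.

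Of 11 tested activin and BMP family genes, 8 were called higher and 1 lower, with a median of 0.97, and with equal medians 5 were higher and 3 lower, the median being 0.39. Fst, the activin antagonist follistatin, passed only through cerulein arrays and was at least 1.26-fold higher in NHsd mice (adjusted p = 0.00224) and at least 1.43-fold higher in J mice (adjusted p = 0.000646). Fstl1, a secreted follistatin-like protein, was 3.07 higher (SE 0.21, adjusted p = 1.33e-07), and Gdf10, a TGF-beta superfamily ligand, 1.69 higher (SE 0.25, adjusted p = 6.67e-05). Bmp7, a BMP ligand, was lower, at −0.65 (SE 0.15, adjusted p = 0.00236). The activin subunit genes Inhba and Inhbb were under log2 4 on all arrays.

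**Figure D4:**
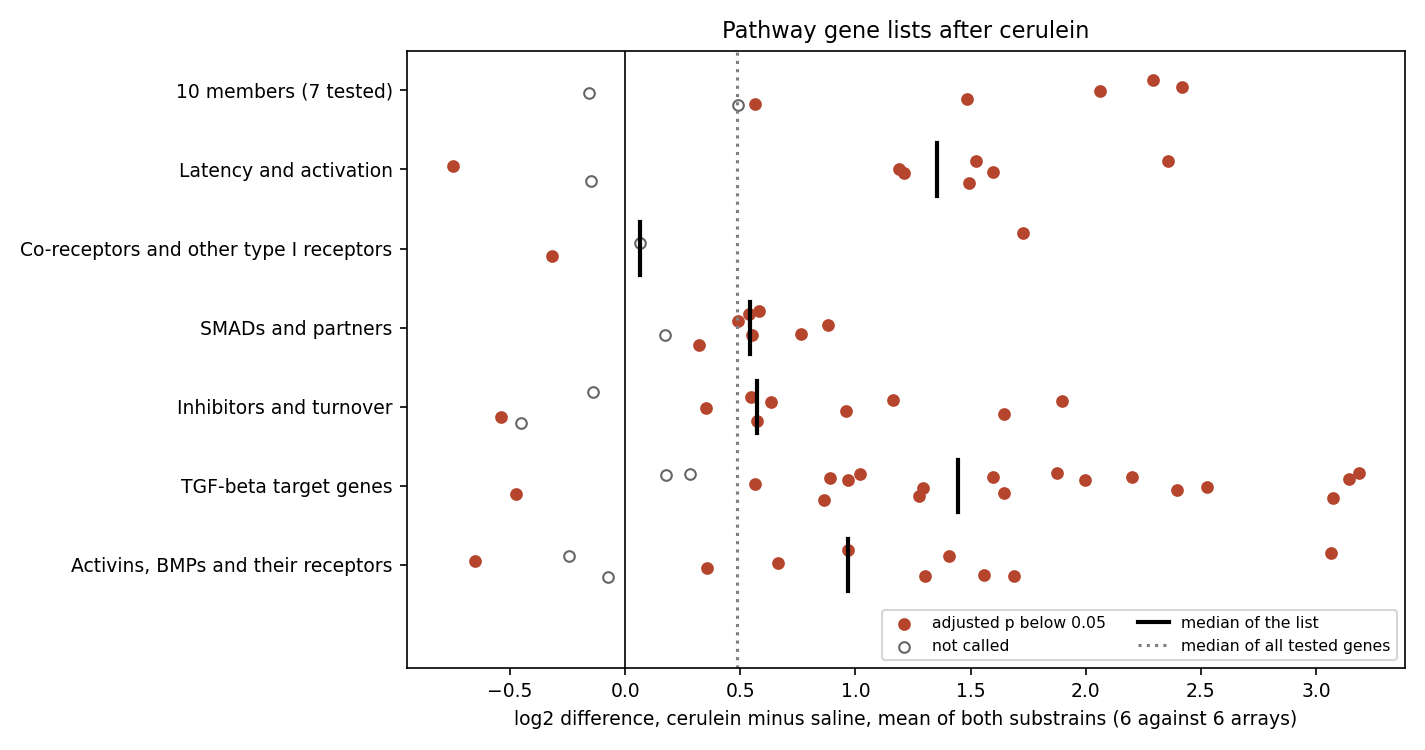
The log2 difference between cerulein and saline, as the mean of both substrains, is plotted for each tested gene of the 10 and of the pathway lists, filled where called, with a bar at each list's median and a dotted line at 0.49, the median of all tested genes. Target genes reach furthest to the right, with a median of 1.45, and SMADs and partners sit around the line. Genes that passed the filter only through cerulein arrays, such as Lox, Snai2, Zeb2, Timp1 and Tgfb3, are plotted with saline readings under the filter. Their points, and the list medians that include them, rest in part on those readings.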

How the data were processed

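Mouse pancreas RNA was labelled and hybridized to 12 Affymetrix arrays, 1 array per biological replicate per the labels. The authors deposited 1 log2 signal per probe set and array, from 2.39 to 16.4. Per the submitters' processing notes GCRMA and Partek were used, with no version and no other step given. They were used as deposited. Of 45101 probe sets, 34958 carried 1 gene symbol in the platform annotation, 932 several and 9211 none; probe sets with 1 symbol were used. A probe set above log2 4 on at least 3 arrays was kept, and the kept one with the highest mean stood for its gene, giving 8505 tested genes. Members under the filter are described by their brightest probe set.

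All 12 arrays entered a single limma 3.58.1 model in R 4.3.3 that estimates a mean for every group (moderated statistics with an intensity trend, two-sided, 8 residual degrees of freedom), with Benjamini-Hochberg adjustment over 8505 genes and calls below 0.05. Where a gene lay under log2 4 on every array of a group, log2 4 took the place of its values for the fold, which is a lower bound. The limma fit kept the values unreplaced, so the adjusted p beside such a fold does not test the bound. Comparisons were cerulein against saline in each substrain and as their mean, the difference of these effects, and J against NHsd under each treatment. Alternatives changed the scaling, the filter, the variance model, the probe sets of a gene, the samples in the fit and the arrays used, or took the replicate number as a block. The fit of single probe sets was added after the data were seen. Controls were compared by an exact permutation test over arrays.

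The named genes were the 10 members; the 3 tested genes closest to each of Tgfbr2 and Tgfbi by root mean square difference of centred values; up to 3 called genes with the largest rise and 2 with the largest fall in each pathway list; and list genes called between substrains. The members and lists were chosen with earlier results of these data known. In simulated data of 8505 genes, 67 were altered 1.5-fold, 67 were altered 2-fold and 66 were altered 4-fold, in both directions. In the mean of both substrains 41.8%, 92.5% and 98.5% of these were called, and 3.73% of calls were false. For NHsd mice alone the shares were 22.4%, 62.7% and 97.0%, with 6.92% of calls false. The simulation held no shift of the whole profile, unlike these data. Promoters came from RefSeq on GRCm38.p6. Same-numbered replicates did not deviate together in every pair (correlations of −0.16 to 0.34), so the numbers were not taken to pair the mice.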

Additional observations from a re-analysis of the deposited data

How the results depend on the processing

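Tgfb3, Tgfbr1, Tgfbr2 and Tgfbi were called higher after cerulein, in each substrain and in their mean, under each of the other settings in which they were tested, 19 to 21 for each gene and comparison; a filter at log2 6 left Tgfb3 untested. Tgfb3 passed the filter at log2 4 only through cerulein arrays and so had to differ under every setting that kept that filter. Its repeated calls there add little. In the mean of both substrains the differences spanned 1.71 to 2.40 for Tgfbr1, 1.84 to 2.63 for Tgfbr2 and 1.48 to 2.15 for Tgfbi. The filter at log2 6 tested 3 members and called 3 in the mean of both, against 5 of 7, where 3018 of its 4762 genes were called higher. Tgfbr1 passed it only through cerulein arrays and so had to differ. On saline arrays Tgfbr2 reached at most 6.34 and Tgfbi at most 6.24, so these 3 calls add little. Without each array in turn, 4 to 6 members were called in the mean of both, where 5526 to 6151 of all 8505 genes were called. In each substrain 4 to 5 members were called, where 3813 to 5257 genes were called in NHsd mice and 3931 to 4899 in J mice. The replicate block called 5 members in the mean of both, 4 in each substrain and 0 between substrains, and it changed no other call. Over all 8505 genes that block called 5952 in the mean of both, 4756 in NHsd mice and 4721 in J mice. These counts alone do not set the members apart. Over all genes, 5049 were called higher and 855 lower as deposited, 2262 higher and 3072 lower with equal medians, and 2384 higher and 2905 lower with quantile normalization.

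Smad3 changed sign: in the mean of both substrains it was −0.017 with equal medians, −0.019 with quantile normalization and −0.11 as the mean of its probe sets. It was −0.79 on probe set 1450472_s_at, which passed the filter only through saline arrays and also enters that mean of probe sets. Smad3 was not called by limma without the filter (adjusted p = 0.0714). In NHsd mice it was −0.0023 with quantile normalization and −0.17 as the mean of its probe sets. In J mice it was −0.044 with equal medians, −0.036 with quantile normalization and −0.047 as the mean of its probe sets, which also gave a difference of effects of 0.13. Tgfb2 was −0.090 and −0.19 with equal medians and quantile normalization in the mean of both, −0.32 and −0.49 in NHsd mice, and −0.072 and −0.090 in J relative to NHsd saline mice. The cause of these changes was not tested.

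Without each array in turn, uncalled values spanned 0: Smad7 in J mice ran from −0.062 to 0.019. The difference of effects ran from −0.26 to 0.24 for Smad3, −0.27 to 0.27 for Tgfbr1 and −0.63 to 0.091 for Tgfbr2. J relative to NHsd after cerulein ran from −0.27 to 0.040 for Smad3, −0.021 to 0.24 for Tgfbr1 and −0.35 to 0.37 for Tgfbr2. In saline mice it ran from −0.37 to 0.12 for Smad3, −0.26 to 0.40 for Tgfb2, −0.012 to 0.35 for Tgfb3, whose saline arrays were all under log2 4, and −0.15 to 0.39 for Tgfbr1. Signal near the lowest values of the table limits Tgfb1, Ltbp1 and Ltbp2, for which no difference can be read.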

Other observations

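Markers of other cell types of the pancreas are given as values beside the 59.4% of all tested genes called higher and 10.1% called lower by limma, with a median of 0.49. Of 7 tested duct markers, 5 were called higher and 1 lower, near the share of all genes, and the list averaged 7.55 to 7.99 after cerulein and 6.77 to 6.99 after saline. All 7 tested islet markers were called higher as deposited and 3 of 7 with equal medians, with list means of 7.93 to 8.70 after cerulein and 7.54 to 7.86 after saline. Of 6 tested endothelial markers, 3 were called higher as deposited, below the share of all genes, and 0 higher and 2 lower with equal medians. The endothelial median was 0.36, and the list averaged 4.06 to 4.63 after cerulein and 3.93 to 4.15 after saline. Of 5 liver-abundant genes 3 (Apoa1, Fgb and Ahsg) were under log2 4 on all arrays. The 2 tested were both called higher. Alb, serum albumin, passed only through cerulein arrays and so had to differ, and Ttr, transthyretin, was 1.56 higher (SE 0.16, adjusted p = 3.27e-06).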
